A study of Mus musculus with 3 samples.

Results

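Adamdec1, Naalad2, Art5, Tril, Pknox2 and Fat4 are the 6 genes read here. In Flk1- cells from differentiating mouse embryonic stem cells, they were among the 11 measured genes that stood furthest above untreated cells when Snail was induced. They were chosen by their intensity difference between Snail-induced and untreated Flk1- cells, leaving out extracellular matrix genes and the cadherin switch, so that difference describes them and is no finding. They were read by all 11 of their probe sets out of 34945 that carry a single gene symbol, and make up 6 of 18193 genes. A2.snail cells, an embryonic stem cell line in which doxycycline switches on the repressor Snail, were grown as embryoid bodies with 10% serum and the Wnt inhibitor DKK1 and sorted at day 3 for Flk1, the VEGF receptor encoded by Kdr. The groups were Snail-induced Flk1+ cells and Snail-induced Flk1- cells, both with 250 ng/mL doxycycline from day 2, and untreated Flk1- cells with 0 ng/mL. Each group has 1 Affymetrix array, so no value has a replicate error, no test is possible and no p-value is given. Snail cannot be told apart from doxycycline itself, since cells that lack the inducible gene were not analysed here. Untreated Flk1+ cells were not analysed here either.

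Snail is a zinc finger protein that silences E-cadherin and other epithelial genes and drives cells from an epithelial to a mesenchymal state. The 6 genes encode proteins of unrelated kinds. Adamdec1 encodes decysin, a secreted relative of the ADAM metalloproteases known from dendritic cells, macrophages and gut stroma. Naalad2 encodes glutamate carboxypeptidase III, a membrane enzyme that splits N-acetylaspartylglutamate, and Art5 encodes an extracellular ADP-ribosyltransferase, an enzyme that moves ADP-ribose from NAD+ onto proteins. Tril encodes a leucine-rich repeat membrane protein that assists Toll-like receptors 3 and 4, known from brain glia. Fat4 encodes a giant atypical cadherin that binds Dachsous proteins on neighbouring cells and takes part in planar cell polarity. Pknox2, also called Prep2, encodes a TALE homeodomain protein, a class of transcription factors that pair with Pbx proteins.

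Promoter windows, 250 bases before to 50 bases after the transcription start, were available for 4 of the 6 genes, with 2 windows for Naalad2 (RefSeq, GRCm38.p6). The E-box CAGGTG, read on both strands and so also as CACCTG, is the textbook site of Snail. It occurred in 1 of the 5 windows, and 20.2% of all 32851 mouse windows hold it. That window is the upstream start of Naalad2 at chr9:18397489-18397788 on the minus strand, printed because it alone among these windows holds the site, which begins at base -140 from the start and is in capitals.
Naalad2: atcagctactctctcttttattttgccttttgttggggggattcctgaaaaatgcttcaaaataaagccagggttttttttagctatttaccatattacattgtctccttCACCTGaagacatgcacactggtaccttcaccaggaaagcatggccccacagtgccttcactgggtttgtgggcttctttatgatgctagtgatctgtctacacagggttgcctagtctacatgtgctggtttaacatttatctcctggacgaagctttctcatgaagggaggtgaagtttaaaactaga
The looser E-box CANNTG, which includes CAGGTG, occurred in the other Naalad2 window and in those of Art5 and Tril, and in 72.3% of all windows. The Fat4 window held neither form.

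The Art5 window, at chr7:102100180-102100479 on the minus strand, is printed for a different motif, searched for after the sequence had been read. The octamer ATGCAAAT (reverse ATTTGCAT), the sequence read by POU factors such as that encoded by Pou5f1, stands in it at bases -47 and -36 and is in capitals.
Art5: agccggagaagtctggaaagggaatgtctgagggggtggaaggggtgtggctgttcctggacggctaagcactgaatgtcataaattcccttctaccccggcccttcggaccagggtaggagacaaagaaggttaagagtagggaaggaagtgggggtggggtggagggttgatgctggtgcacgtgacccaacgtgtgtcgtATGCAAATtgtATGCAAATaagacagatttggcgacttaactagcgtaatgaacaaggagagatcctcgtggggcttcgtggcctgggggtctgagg
At least 1 octamer occurred in 1.74% of all windows and at least 2 in 35 of 32851 windows, or 0.107%. Because the motif was picked from this same window, these shares cannot show that the window is unusual. Pou5f1 read 3607 in Snail-induced Flk1+, 5963 in Snail-induced Flk1- and 5224 in untreated Flk1- cells, and its part in the level of Art5 was not tested. A match of letters is a description of the window and not a binding site, and binding was not measured.

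The arrays had median intensities of 44.6 in Snail-induced Flk1+, 42.4 in Snail-induced Flk1- and 42.7 in untreated Flk1- cells. An intensity is the brightness of a probe set on a linear scale, and 1 probe set's level cannot be set against another's. Values below a floor of 25.6, the 40th percentile of all values, are treated as not measured, and 13969 genes reached the floor on at least 1 array. Kdr read 404 in Snail-induced Flk1+, 9.73 in Snail-induced Flk1- and 10.5 in untreated Flk1- cells, as the sort labels say, while the single Snai1 probe set gave 19.8, 13.1 and 29.1 in that order, near or below the floor. Whether it reads the inducible copy is not stated, so it gives no check of the induction. All 12 pluripotency markers listed for the labelled cell type were measured, with summed intensities of 24989 in Snail-induced Flk1+, 42321 in Snail-induced Flk1- and 40202 in untreated Flk1- cells.

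Among the extracellular enzymes, Adamdec1 has 1 probe set, which read 156 in Snail-induced Flk1+, 242 in Snail-induced Flk1- and 3.75 in untreated Flk1- cells. The untreated value lies in the lowest 8.16% of that array, and the Snail-induced Flk1- value above 74.5% of its array. Folds given as "at least" are intensity over the floor, while other folds are of intensity plus 9.53, so the 2 kinds are on different scales and are not to be ranked against each other. Set against the floor, Snail-induced Flk1- cells were at least 9.48-fold higher than untreated ones and Snail-induced Flk1+ cells at least 6.10-fold higher. On the scale of intensity plus 9.53, Adamdec1 ranked 1st of all measured genes in the comparison that chose it, with a log2 difference of 4.25. That difference rests on an untreated value under the floor and depends on the offset. It was 6.01 with no offset and 3.19 with an offset at the 40th percentile, and ranks were not read at those settings. Within the induced culture it was 1.52-fold lower in Flk1+ than in Flk1- cells.

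The brightest Art5 probe set read 92.3 in Snail-induced Flk1+, 167 in Snail-induced Flk1- and 14.5 in untreated Flk1- cells. The second read 24.4, 34.9 and 21.7 in that order and passed the floor only in Snail-induced Flk1- cells. By the brightest, Snail-induced Flk1- cells were at least 6.53-fold and Snail-induced Flk1+ cells at least 3.61-fold higher than untreated cells. Like Adamdec1, Art5 was highest in the Snail-induced Flk1- cells on both probe sets, and its brightest was 1.73-fold lower in the Flk1+ cells of that culture.

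Naalad2 had its highest level in Snail-induced Flk1+ cells. Its brightest probe set, whose suffix marks one that can read several transcripts, gave 737 there, 299.99 in Snail-induced Flk1- and 18.4 in untreated Flk1- cells. The second, which lacks that suffix, gave 41.6, 35.6 and 14.1 in the same order, so both had the same order of arrays but the second stayed near the floor. Against untreated cells the brightest was at least 28.8-fold higher in Snail-induced Flk1+ and at least 11.7-fold higher in Snail-induced Flk1- cells. The second was above them by at least 1.63-fold and 1.39-fold. Between Flk1+ and Flk1- cells of the induced culture the difference was 2.41-fold by the brightest and 1.13-fold by the second.

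Of the cell surface proteins, Tril read 338 in Snail-induced Flk1+, 148 in Snail-induced Flk1- and 13.7 in untreated Flk1- cells on its brightest probe set. Its second read 145, 96.0 and 65.7, above the floor on all 3 arrays. The order of the arrays is shared, but the second puts Tril well above the floor in untreated Flk1- cells. By it, Tril was only 1.40-fold higher in Snail-induced Flk1- than in untreated cells, against at least 5.80-fold by the brightest. The label of brightest rests on a mean log2 intensity of 6.76 against 6.74, so for Tril the choice between the probe sets is close to a tie. Flk1+ cells of the induced culture exceeded its Flk1- cells 2.20-fold by the brightest and 1.47-fold by the second probe set.

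Fat4 was the gene whose probe sets lay closest in their log2 difference from untreated Flk1- cells. Its brightest probe set carries the same suffix as that of Naalad2, so it too can read several transcripts. The brightest read 438 in Snail-induced Flk1+, 259 in Snail-induced Flk1- and 26.3 in untreated Flk1- cells, and the second 155, 96.5 and 19.9. On the scale of intensity plus 9.53 the brightest was 12.5-fold higher in Snail-induced Flk1+ and 7.49-fold higher in Snail-induced Flk1- than in untreated cells. The second, set against the floor, was at least 6.08-fold and at least 3.78-fold higher. Within the induced culture both were higher in Flk1+ cells, by 1.66-fold and 1.55-fold.

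Pknox2, the transcription factor gene among the 6, stood at like levels in both Snail-induced arrays. Its brightest probe set read 248 in Snail-induced Flk1+, 223 in Snail-induced Flk1- and 25.1 in untreated Flk1- cells, and the second 52.0, 51.3 and 33.2. By the brightest it was at least 8.73-fold higher in Snail-induced Flk1- and at least 9.71-fold higher in Snail-induced Flk1+ cells than in untreated ones, and by the second 1.43-fold and 1.44-fold higher. The Flk1+ to Flk1- ratio within the induced culture was 1.11 by the brightest and 1.01 by the second.

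**Figure D1:**
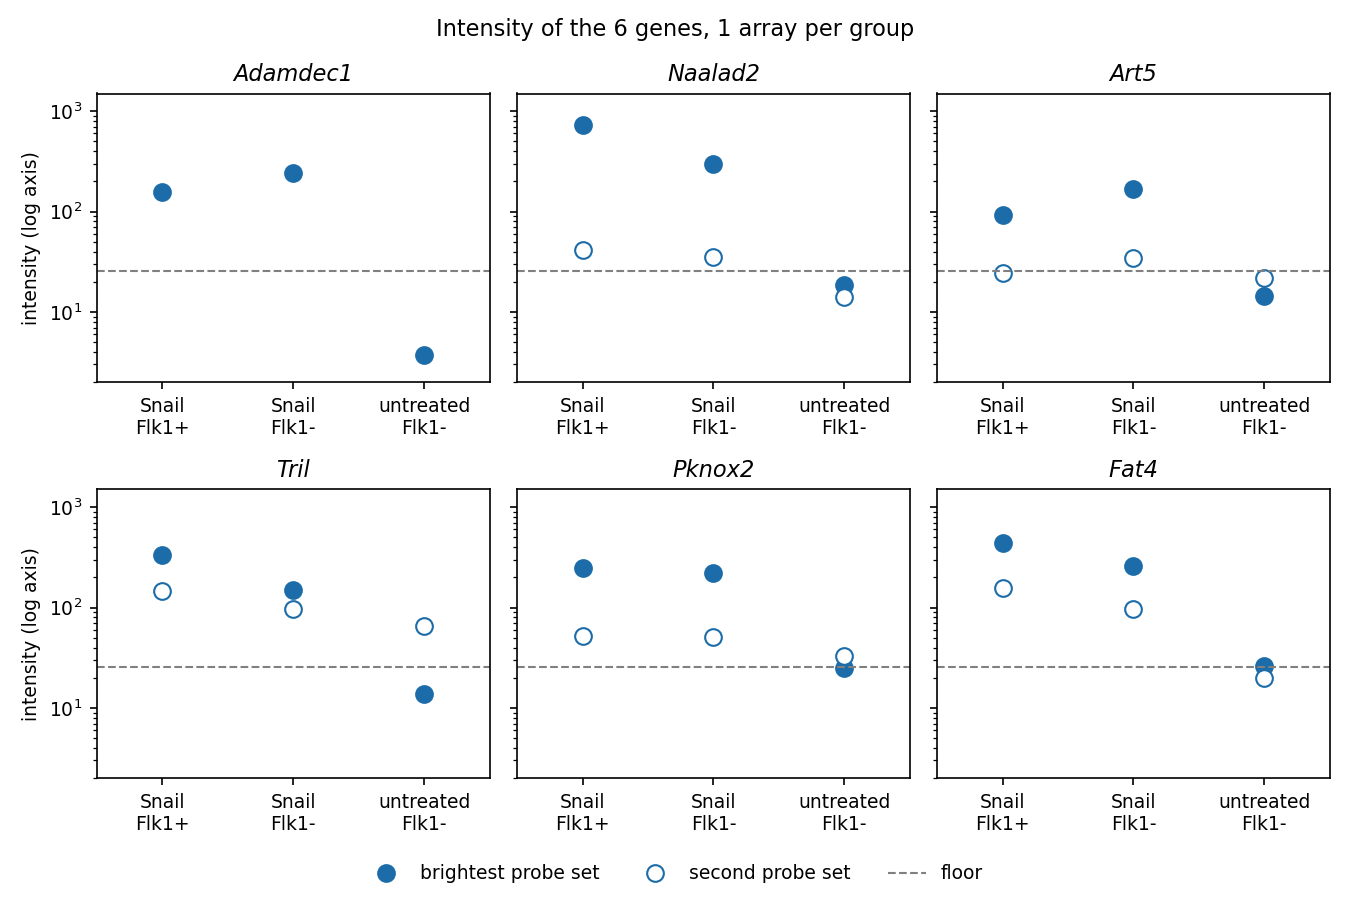
Intensity (log axis) of each probe set of the 6 genes on the 3 arrays, 1 point per probe set and array; filled points are the brightest probe set, open points the second, and the dashed line is the floor of 25.6. All 11 probe sets are lowest in untreated Flk1- cells, and the open points spread less over the arrays than the filled ones.

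Naalad2, Tril and Fat4 ran from Snail-induced Flk1+ down to untreated Flk1- on both probe sets, Adamdec1 and Art5 were highest in Snail-induced Flk1- cells, and Pknox2 was nearly level between the induced arrays. With 1 array per group it is unknown which neighbours in these orders differ beyond the spread of cultures. Because the RNA is from bulk cells, a change in the share of expressing cells cannot be told apart from a change in RNA per cell.

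A gene was counted as at least 2-fold apart when its log2 difference (of intensity plus an offset of 9.53) reached 1 in size. In the comparison that chose them, all 6 genes were at least 2-fold higher, where 2.95% of measured genes were, and nothing is read from that. Centring each array on its median would turn the share of higher calls over all genes, among those at least 2-fold apart, to 44.1% from 59.3%, and leaves the 6 genes at least 2-fold higher. The log2 differences of the 6 ran from 2.75 for Pknox2 to 4.25 for Adamdec1, and the 6 held ranks 1, 3, 7, 8, 10 and 11 of 13969 genes. Between them stood Tgfbi, Cdh11 and Col5a2, which are matrix or cadherin switch genes, and the transcription regulators Mef2c (2.93) and Zfpm2 (2.82), which are neither, so the 6 are not every gene that fits their description. Just below came Angpt1 and Hprt, both at 2.68, and Ets1 at 2.60, against 2.75 for Pknox2 as the last of the 6.

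**Figure D2:**
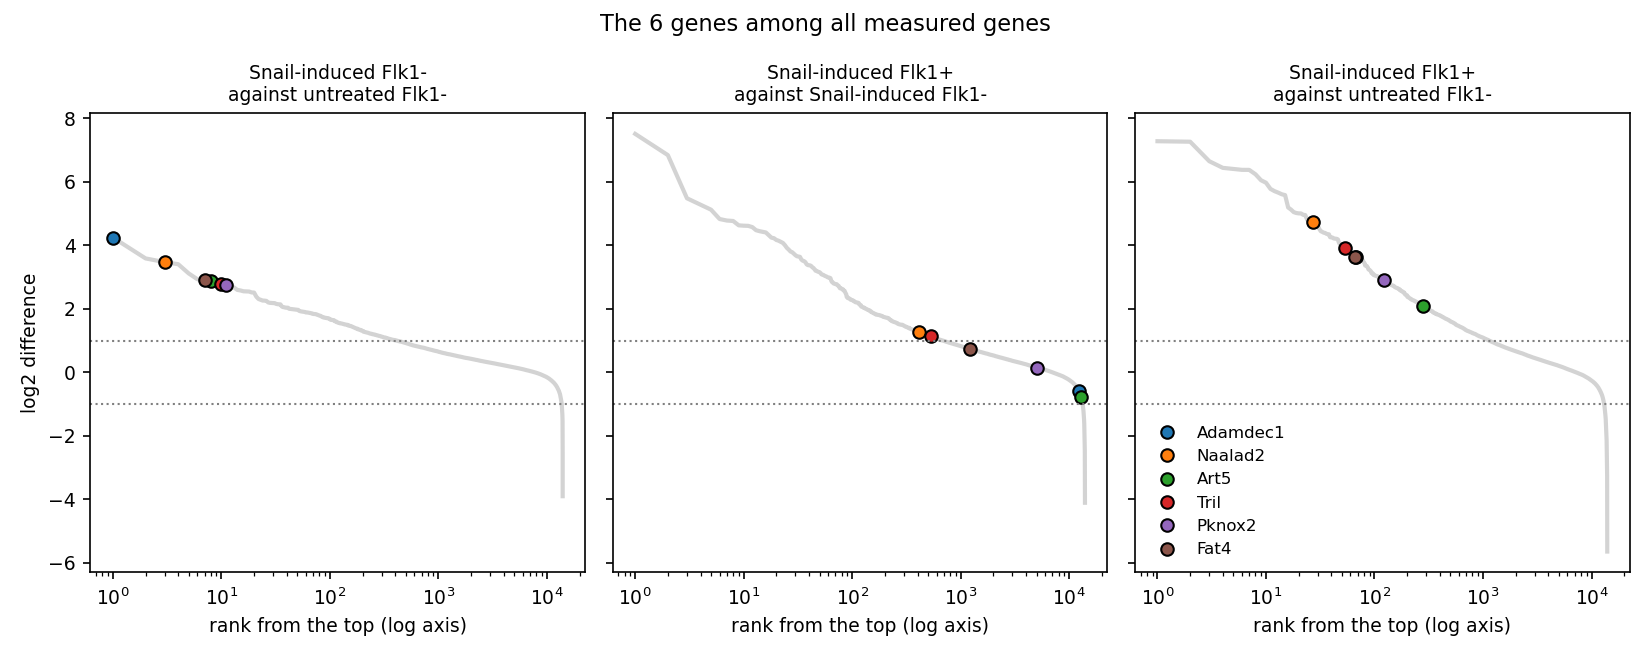
Log2 difference of all 13969 measured genes (gray curve) against their rank from the top (log axis) in each comparison, with the 6 genes as coloured points and dotted lines at 2-fold. They lie at ranks 1 to 11 in the comparison that chose them, from 416 to 12929 within the induced culture, and from 27 to 278 in Snail-induced Flk1+ against untreated Flk1- cells.

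The comparison within the induced culture did not choose the genes, but it shares with that choice the Snail-induced Flk1- array, on which they were picked for being high. Here the 6 genes spread out. At least 2-fold higher in Flk1+ cells were Naalad2 and Tril, 2 of 6 genes, against 4.85% of all measured genes; 0 of 6 were at least 2-fold lower, against 4.89%. The median log2 difference of the 6 was 0.44, with a range from -0.79 for Art5 to 1.27 for Naalad2, beside 0.00 over all measured genes. Naalad2 ranked 416th and Tril 533rd from the top, Fat4 1228th and Pknox2 5101st, while Adamdec1 and Art5 stood 1550th and 1041st from the bottom. Of the 11 probe sets 2 were at least 2-fold higher, where 4.78% of all measured probe sets were, and with the second probe set of each gene 0 of 5 were. The endothelial and hemangioblast markers moved with the same comparison: all 14 were at least 2-fold higher, with summed intensities of 12697 in Snail-induced Flk1+, 1356 in Snail-induced Flk1- and 824 in untreated Flk1- cells. Their part in the levels of Naalad2 and Tril was not tested.

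Snail-induced Flk1+ against untreated Flk1- cells shares the untreated array, on which the genes were picked for being low. All 6 were at least 2-fold higher, with 8.10% of measured genes higher by that much and 6.41% lower. Log2 differences ran from 2.08 for Art5 to 4.74 for Naalad2 with a median of 3.64, beside 0.01 over all measured genes. Of the 11 probe sets 9 were at least 2-fold higher, against 8.21% of all. Art5's second probe set, with a log2 difference of 0.12 and both values under the floor, and Pknox2's second, at 0.53, were the exceptions.

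The 5 genes with a second probe set had a smaller difference on it each time. In the comparison that chose the genes, the second probe sets had log2 differences of 0.93 for Naalad2, 0.51 for Art5, 0.49 for Tril, 0.51 for Pknox2 and 1.85 for Fat4. All 5 were above 0, but only Fat4's reached 2-fold, so 7 of the 11 probe sets were at least 2-fold higher, where 2.82% of all measured probe sets were. Over all genes, 183 were at least 2-fold higher by the brightest probe set and had a measured second one; the second was also higher in 84.7% of them and at least 2-fold higher in 44.8%. The 6 genes were picked for a large value on 1 probe set, and both probe sets of a gene share their array, so the second is no replicate. Adamdec1 has no second probe set to set beside its own.

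**Figure D3:**
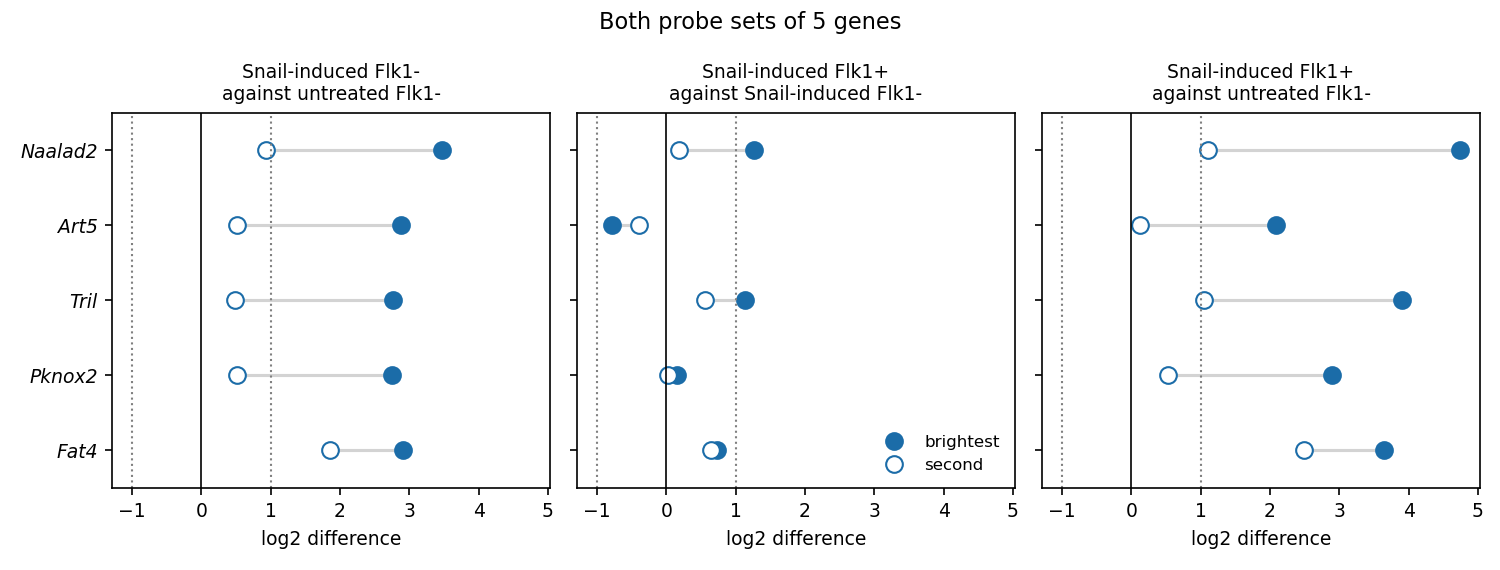
Log2 difference by the brightest (filled) and the second (open) probe set of the 5 genes that have both, in the 3 comparisons, with dotted lines at 2-fold. In Snail-induced Flk1- against untreated Flk1- cells the second lies at 0.49 to 0.93 for 4 genes and at 1.85 for Fat4, while both have the same sign in every comparison.

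Relatives and pathway partners of each gene were then counted. Of 15 measured genes of the Fat, Dachsous and planar polarity list, in Snail-induced against untreated Flk1- cells 3 were higher and 1 lower by at least 2-fold. Of all measured genes 2.95% were higher and 2.03% lower by that much. The list's median log2 difference was 0.01 beside 0.04 over all genes. Dchs1, which encodes the ligand that Fat4 binds, led them: it read 484 in Snail-induced Flk1+, 251 in Snail-induced Flk1- and 69.9 in untreated Flk1- cells. That is 3.28-fold higher in Snail-induced than in untreated Flk1- cells and the same order of arrays as Fat4. The polarity genes Prickle2 and Ankrd6 were 2.78-fold and 2.33-fold higher, and Dvl1, which encodes a Dishevelled protein of Wnt and polarity signalling, was 2.03-fold lower. Fat1, another Fat cadherin gene, read 2503, 2204 and 1450 in the order of arrays given for Dchs1. Within the induced culture 0 of the 15 were at least 2-fold higher in Flk1+ cells and 2 were lower, Celsr1 at least 2.35-fold and Prickle2 2.01-fold. Of all measured genes 4.85% were higher and 4.89% lower there.

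The TALE homeobox list of Pknox2 had 4 of 14 measured genes at least 2-fold higher and 0 lower in Snail-induced Flk1- against untreated Flk1- cells, with a median of 0.25. The shares over all measured genes were 2.95% higher and 2.03% lower. Irx3 and Meis2 were 3.29-fold and 3.14-fold higher and Meis1 and Irx5 at least 2.82-fold and at least 2.45-fold. Meis proteins, like Prep proteins, are partners of Pbx proteins. Meis1 read 259 in Snail-induced Flk1+, 72.1 in Snail-induced Flk1- and 16.6 in untreated Flk1- cells, so unlike Pknox2 it was higher, by 3.29-fold, in the Flk1+ cells of the induced culture. Irx3 was 3.78-fold higher there and Tgif1 2.05-fold lower. Pknox1, the nearest relative of Pknox2, went the other way from it, with 442, 503 and 691 in the order of arrays used for Meis1, and its 3 measured probe sets had the same sign in both of these comparisons. Pbx2, Pbx3 and Pbx4 were within 1.27-fold between Snail-induced and untreated Flk1- cells.

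For Adamdec1, 14 genes of the ADAM list were measured, and 1 of them, Adam19, was at least 2-fold higher in Snail-induced Flk1- cells, by 2.14-fold, with 0 lower and a list median of 0.30. The shares over all measured genes were 2.95% higher and 2.03% lower. Adam19 read 1313 in Snail-induced Flk1+, 839 in Snail-induced Flk1- and 388 in untreated Flk1- cells. The sheddase gene Adam10 was 2.25-fold higher in Flk1+ than in Flk1- cells of the induced culture, where Adamdec1 was lower. Adam28 and Adam7, genome neighbours of Adamdec1 in the same family, were under the floor on every array.

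The Toll-like receptor list of Tril had 0 of 17 measured genes higher and 2 lower by at least 2-fold in Snail-induced Flk1- against untreated Flk1- cells, with a median of -0.11. The shares over all measured genes were 2.95% higher and 2.03% lower. The lower genes were Lbp, at least 2.31-fold, and Tlr5, at least 1.79-fold when set against the floor. Of the receptors that Tril assists, Tlr4 read 35.8 in Snail-induced Flk1+, 20.8 in Snail-induced Flk1- and 27.9 in untreated Flk1- cells, and Tlr3 was under the floor on every array. The Toll-like receptor 4 partners Cd14 and Ly96 read 45.3, 28.0 and 35.8, and 33.7, 29.4 and 25.9, in that order. These partners lay near the floor on all 3 arrays. Within the induced culture Tlr2 was 2.10-fold lower in Flk1+ cells. Lbp was at least 1.82-fold higher there on its brightest probe set, while its other measured one had a log2 difference of -0.29.

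The lists of Naalad2 and Art5 held few measured genes. Of 7 measured genes around glutamate carboxypeptidases and N-acetylaspartylglutamate, 0 were at least 2-fold higher in Snail-induced Flk1- cells, beside 2.95% of all measured genes. Nat8l, which encodes the enzyme that makes N-acetylaspartate, was 2.45-fold lower, with 48.0 in Snail-induced Flk1+, 47.7 in Snail-induced Flk1- and 131 in untreated Flk1- cells. Folh1, which encodes the closest relative of the Naalad2 enzyme, was under the floor on every array. Rimkla, which encodes an enzyme that makes N-acetylaspartylglutamate, the substrate of that enzyme, read 70.0, 118 and 234 in the order of arrays used for Nat8l, 3.06-fold lower in Snail-induced Flk1+ than in untreated cells. Of the ADP-ribosyltransferase list 2 genes were measured, Art1 and Art3, and neither was 2-fold apart in any of the 3 comparisons. Art1, which lies next to Art5 in the genome, read 113, 73.1 and 127 in the same order of arrays on its brightest probe set. Its other measured probe set read 31.1, 70.0 and 60.3, so the probe sets of Art1 disagree on which array is highest.

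**Figure D4:**
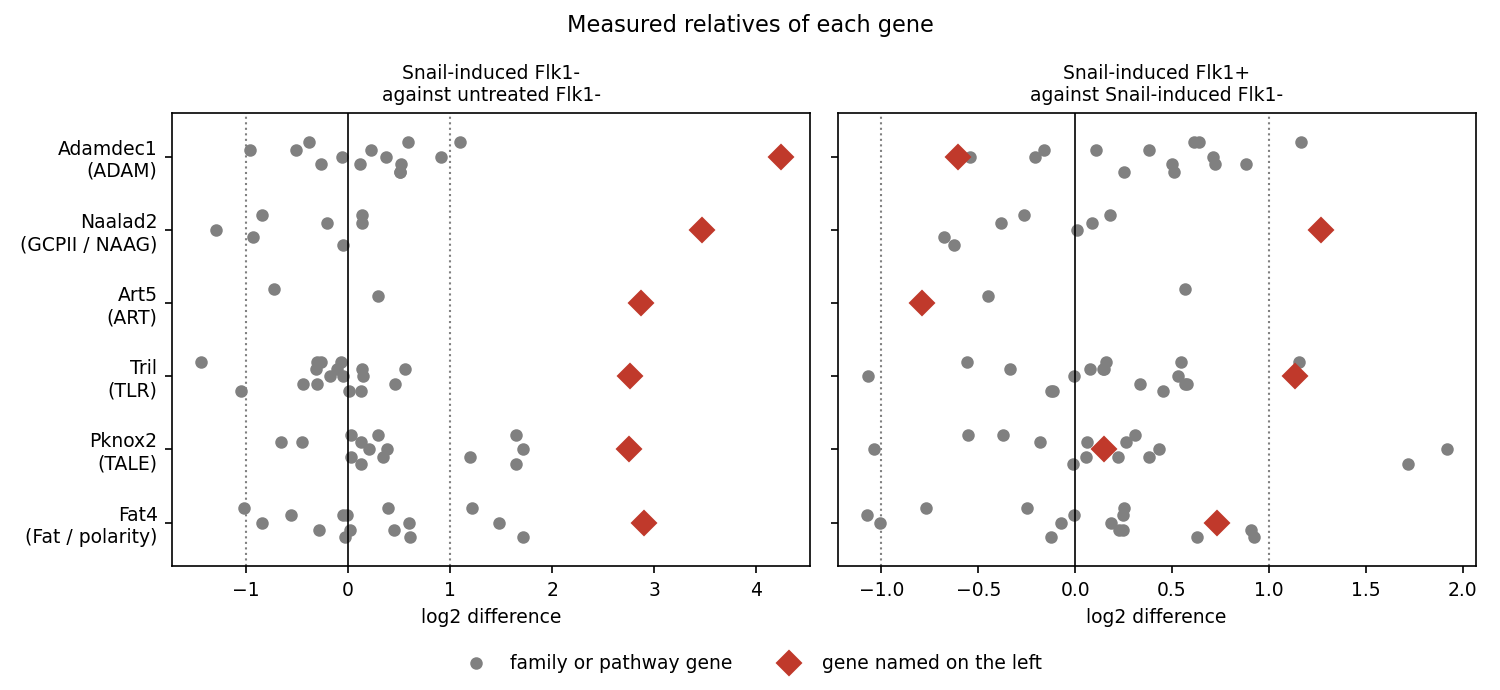
Log2 difference of each measured family or pathway gene (gray points) and of the gene named on the left (red diamonds) in the 2 comparisons shown, with dotted lines at 2-fold. In the comparison with untreated Flk1- cells the diamonds were chosen for lying far right, so their place beside the relatives is no finding. Every point is a brightest probe set. Within the induced culture Tril, Pknox2 and Fat4 lie inside the range of their relatives, Naalad2 above it, and Adamdec1 and Art5 below it. Naalad2's second probe set, at 0.18, is not above Aspa, also at 0.18. Art5 has only 2 relatives here, and the other measured probe set of Art1, at -0.97, lies below Art5. Adamdec1, at -0.61, is close to Adam1b at -0.54.

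Genome neighbours of the 6 genes were also read. Of the 24 genes nearest to the 6 (2 with a probe set on each side, by the order in GRCm38.p6), 17 were measured, and 0 were at least 2-fold higher or lower in Snail-induced Flk1- against untreated Flk1- cells. With 2.95% of all measured genes higher and 2.03% lower, 17 genes are too few for a count of 0 to set the neighbours apart. Their log2 differences ran from -0.72 for Art1 to 0.92 for Trpc2, which lies on the other side of Art5, with a median of 0.07. Trpc2 read 135 in Snail-induced Flk1+, 153 in Snail-induced Flk1- and 76.1 in untreated Flk1- cells, the order of arrays seen for Art5. Within the induced culture Fez1 beside Pknox2 had a log2 difference of -1.13 and Jazf1, on 1 side of Tril, one of 1.53. Jazf1 read 34.2 in Snail-induced Flk1+, 5.63 in Snail-induced Flk1- and 14.5 in untreated Flk1- cells. It passed the floor only in the first, so its difference depends on the offset. Between Jazf1 and Tril lie 15 genes without a probe set.

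The measured genes most like each of the 6 over the 3 arrays were sought by the distance between log2 values after each gene's own mean was removed. Col5a2, which encodes a fibrillar collagen, was nearest to Fat4 at 0.15, followed by Angpt1, which encodes an angiopoietin, at 0.17. Tril was nearest to Angpt1 at 0.23 and to Fat4 at 0.29, and Naalad2 to the matrix gene Tgfbi at 0.24. Art5 was nearest to Hprt, the purine salvage enzyme gene, at 0.16, then to Pdgfra and Ncam1 at 0.26 and 0.27. Hprt itself read 1328 in Snail-induced Flk1+, 2301 in Snail-induced Flk1- and 352 in untreated Flk1- cells. Pknox2 was nearest to Sparcl1 at 0.37, Nr2f1 at 0.43 and Ghr at 0.44. Adamdec1 had no near match, the nearest being Cdh11 at 0.81. With 3 arrays many genes can lie close by this measure, and it says nothing of shared control.

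Markers of the other cell types in which these genes are known were read beside them. For leukocytes and macrophages, where Adamdec1 is known, 8 of 13 markers were measured, and the summed intensities were 947 in Snail-induced Flk1+, 627 in Snail-induced Flk1- and 664 in untreated Flk1- cells. Ptprc read 60.6, 7.46 and 38.4 in that order, and Cd52 and Ctss were under the floor on every array. Adgre1 read 177, 103 and 140, and the brightest Csf1r probe set 109, 75.8 and 83.5, above the floor on all 3 arrays. Laptm5 was 2.81-fold higher in Snail-induced Flk1- than in untreated cells on its brightest probe set, the only marker of this list at least 2-fold higher there, but its other 2 measured probe sets were lower, with log2 differences of -0.36 and -0.39. Without Laptm5 the sums were 597 in Snail-induced Flk1+, 457 in Snail-induced Flk1- and 610.2 in untreated Flk1- cells. For skeletal muscle 6 of 12 markers were measured and 0 were at least 2-fold apart in that comparison, with sums of 482 in Snail-induced Flk1+, 421 in Snail-induced Flk1- and 372 in untreated Flk1- cells and Myf5, Myog and Tnni1 under the floor throughout. Without Des, the brightest of them, the muscle sums were 245, 282 and 282 in the same order of arrays. For neurons and neural progenitors 1 of 11 measured markers, Ncam1, was higher. The sums were 3537 in Snail-induced Flk1+, 5204 in Snail-induced Flk1- and 3701 in untreated Flk1- cells. Without Stmn2, the brightest of them, they were 1613, 2338 and 1986 in the same order. No markers of glia, where Tril is known, were in this list.

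Some fibroblast and feeder markers were higher along with the 6 genes. Of 10 measured, 4 were at least 2-fold higher and 0 lower in Snail-induced Flk1- against untreated Flk1- cells, with a median log2 difference of 0.81. The 4 were Col3a1, Dcn, Pdgfrb and Fbln5. Over all measured genes 2.95% were higher and 2.03% lower by that much. The sums over 13 markers were 1675 in Snail-induced Flk1+, 1874 in Snail-induced Flk1- and 1061 in untreated Flk1- cells. Col1a1 and Postn of this list were under the floor on every array. Col1a1 read 15.1 in Snail-induced Flk1+, 16.2 in Snail-induced Flk1- and 4.45 in untreated Flk1- cells, and Postn at most 3.23. By their brightest probe sets Col1a2 read 132, 93.5 and 76.7 and Fbln1 809, 736 and 442 in the same order of arrays. Visceral and primitive endoderm markers had sums of 2677 in Snail-induced Flk1+, 1262 in Snail-induced Flk1- and 800.3 in untreated Flk1- cells, and Sox17 made up most of the difference between the induced arrays. Without Sox17 the sums were 1210.3 in Snail-induced Flk1+, 1166 in Snail-induced Flk1- and 732 in untreated Flk1- cells. Of this list, Dab2 and Rbp4 were at least 2-fold higher in Snail-induced than in untreated Flk1- cells, and Afp, Ttr and Apoa1 were under the floor throughout. The part of these cell types in the levels of the 6 genes was not tested.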

How the data were processed

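The values the authors deposited are 1 linear intensity per probe set and array, for 45037 probe sets. Per the labels' protocols, biotinylated cRNA was made from 2 ug of total RNA by the standard Affymetrix method; how the probes were summarised and scaled is not stated in the labels. Probe sets were named by the platform annotation, with symbols updated through GRCm38.p6 RefSeq gene IDs: 34945 had 1 symbol, 932 several (not used) and 9160 none.

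Differences are of log2(intensity + 9.53), with an offset at the 20th percentile; this scale understates differences of dim genes. A gene was read by the probe set with the highest mean on that scale, and was measured if at or above the 40th percentile, 25.6, on at least 1 array. Where the dimmer value was under that floor, the brighter one divided by the floor is given as "at least". Counts of genes 2-fold or more apart carry no test, since each group has 1 array; the number of arrays limits the precision. The counting was tested on simulated data, with changes placed only in genes well above the floor. It was not tested for values near or under the floor, such as the untreated levels of these genes. The 6 genes, the lists and the rules for named genes were chosen with earlier results of these data known. Named list genes are up to 3 per list and comparison with the largest difference, plus direct relatives and partners; for each gene the 3 nearest in pattern and 2 neighbours a side were taken, and not all are printed. Marker genes counted as apart, Pou5f1 and the octamer motif were named after their values or letters were seen. Python 3.11.15, numpy 2.4.6, pandas 2.3.3 and matplotlib 3.10.9 were used.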

Additional observations from a re-analysis of the deposited data

How the results depend on the processing

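Under 8 other settings of probe sets, scaling, offset and floor, no log2 difference of the 6 genes changed sign, nor did those of the 5 genes with another probe set when read by it, a setting added after seeing the data. A 3-fold threshold, which alters only counts, makes 9. The offset and floor settings kept the probe set of each gene and so could not change a sign. Only the probe set and scaling settings could have done so. The count of the 6 genes at least 2-fold higher in Snail-induced Flk1- against untreated Flk1- cells was 5 without _s_at and _x_at probe sets, 6 under the rest of the 9 and 1 of 5 genes with the other probe set; in Snail-induced Flk1+ against untreated Flk1- cells it was 6 under all 9 and 3 of 5 with the other probe set. Within the induced culture the count of 2 became 0 with the mean of all probe sets, 0 at 3-fold, 0 with the other probe set, and 1 (Tril) without _s_at and _x_at probe sets. Without its _s_at probe set Naalad2 has a log2 difference of 0.93 in Snail-induced Flk1- against untreated Flk1- cells, in place of 3.47. Fat4 without its own has 1.85 in that comparison, in place of 2.91. Over all measured genes in Snail-induced Flk1- against untreated Flk1- cells, the counts of 695 apart, 412 higher and 283 lower became 441, 263 and 178 with the mean of all probe sets, 395, 260 and 135 with the offset at the 40th percentile, and 147, 115 and 32 at 3-fold. With no offset 1153 were apart and 535 lower, and with the floor at the 60th percentile 168 were lower. At 3-fold, Snail-induced Flk1+ against Snail-induced Flk1- cells had 469 apart, 241 higher and 228 lower in place of 1361, 678 and 683, and Snail-induced Flk1+ against untreated Flk1- cells 909, 513 and 396 in place of 2028, 1132 and 896. Untreated levels of 5 of the 6 genes lay under the floor, so their folds are bounds. No paired analysis was possible because each group has 1 array.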
